A study of Mus musculus with 12 samples.

Results

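Transcription factors of the dorsal interneurons were measured in RNA-seq libraries of ventral spinal cord from mouse embryos, to gauge how much dorsal cord each dissection held. The 10 genes, *Atoh1*, *Barhl1*, *Barhl2*, *Lbx1*, *Tlx3*, *Lmx1b*, *Pax2*, *Pax8*, *Ptf1a* and *Pou4f1*, were taken by name as genes of the dI1 to dI6 classes, out of 45777 gene identifiers in each table. The 12 libraries came from E12.5 embryos and fell into 4 groups of 3, brachial and lumbar cord of *Isl2* heterozygotes (*Isl2* +/-, Het) and brachial and lumbar cord of *Isl2* KO embryos (*Isl2* -/-). Isl2 is a LIM homeodomain factor of motor neurons, and the Het embryos carry a single intact copy, so no group was wild type. All cords were trimmed around the *Hb9::GFP* reporter, which lights up motor neurons, and every cell in the trimmed piece entered the RNA. The labels tie no library to an embryo. The methods give 3 animals per genotype, so brachial and lumbar libraries may share animals.

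The dorsal part of the developing spinal cord makes 6 classes of early-born interneurons, dI1 to dI6, from progenitor bands laid out in order from the roof plate to the boundary with the ventral cord. Atoh1 is the proneural factor of the dI1 progenitors next to the roof plate, and Barhl1 and Barhl2 mark the commissural and ipsilateral neurons that arise from them. Pou4f1 (Brn3a) is carried by dI1, dI2, dI3 and dI5 neurons. Ptf1a drives the inhibitory dI4 fate in its progenitors, Lbx1 sets apart dI4, dI5 and dI6, Tlx3 and Lmx1b mark the excitatory dI5 neurons, and Pax2 and Pax8 mark inhibitory dI4 and dI6 neurons. Several of these genes are not confined to the dorsal cord: Pax2 and Pax8 also occur in ventral inhibitory interneurons, Pou4f1 and Tlx3 in sensory ganglia, and Lmx1b in the roof and floor plates.

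The promoters of the 4 genes whose level differed between brachial and lumbar cord by at least 1 of the criteria used here are shown, since those differences are what the results turn on. Each is the 250 bases before a RefSeq transcription start (GRCm38.p6), 5′ to 3′ on the strand of the gene. Capitals mark matches to the E-box CANNTG, the motif that proneural bHLH factors such as Atoh1 and Ptf1a bind, which reads the same way on both strands. The *Barhl1* window, chr2:28916669-28916918 on the minus strand, held 1 E-box, as did a second *Barhl1* window in the table, chr2:28912496-28912745, that is not printed. Both *Barhl1* windows lie inside the span of the gene, chr2:28907680-28917984, so neither is upstream of its outer start. The *Barhl2* window, chr5:106458167-106458416 on the minus strand, held 2. The *Pax8* window, chr2:24475600-24475849 on the minus strand, and the *Ptf1a* window, chr2:19445413-19445662 on the plus strand, held 0.
Barhl1: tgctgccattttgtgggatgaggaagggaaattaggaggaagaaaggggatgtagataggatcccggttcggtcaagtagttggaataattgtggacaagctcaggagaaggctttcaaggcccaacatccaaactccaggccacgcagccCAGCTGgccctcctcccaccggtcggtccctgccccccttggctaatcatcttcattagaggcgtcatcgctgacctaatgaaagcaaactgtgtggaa
Barhl2: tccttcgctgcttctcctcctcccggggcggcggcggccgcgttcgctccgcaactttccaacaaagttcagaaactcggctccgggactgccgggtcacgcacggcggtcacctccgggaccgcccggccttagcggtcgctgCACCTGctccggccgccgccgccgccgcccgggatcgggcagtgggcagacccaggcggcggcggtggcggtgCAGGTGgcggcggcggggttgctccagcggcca
Pax8: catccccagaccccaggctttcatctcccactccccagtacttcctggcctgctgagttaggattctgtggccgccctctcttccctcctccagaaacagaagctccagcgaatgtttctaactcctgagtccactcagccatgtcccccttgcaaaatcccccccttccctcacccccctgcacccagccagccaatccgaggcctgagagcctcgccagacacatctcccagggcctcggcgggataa
Ptf1a: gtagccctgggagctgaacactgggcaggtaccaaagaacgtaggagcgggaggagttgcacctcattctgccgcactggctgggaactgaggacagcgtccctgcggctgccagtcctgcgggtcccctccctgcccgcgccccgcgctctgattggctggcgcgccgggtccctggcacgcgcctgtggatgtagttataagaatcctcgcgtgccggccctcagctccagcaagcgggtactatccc
An E-box was present in 66.2% of the 32536 windows of this length in the RefSeq table, so most windows share it. The homeodomain palindrome TAATTA, found on either strand in 4.84% of windows, and the Hox-Pbx motif TGATNNAT, found in 7.66%, had no match in the 4 printed windows. A window was at hand for 9 of the 10 genes, with *Lbx1* the exception.

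Expression is given as TPM, which is scaled to gene length, put on a common scale with median-of-ratios size factors. Each library held between 4.48 and 6.64 Gb of aligned bases. *Isl2* was lower in all KO than in all Het libraries at both levels. It fell from 8.89 ± 0.71 (SD, n = 3) to 5.91 ± 1.40 TPM at the brachial level and went from 9.36 ± 0.94 to 7.34 ± 0.85 TPM at the lumbar level, and limma gave log2 differences of -0.61 (SE 0.18, adjusted p = 0.357) and -0.35 (SE 0.13, adjusted p = 0.999), so transcript of the gene was still present in every KO library. The levels matched their *Hox* genes: *Hoxd10* was at most 0.02 TPM in brachial and at least 124 TPM in lumbar libraries, and *Hoxc8* was 131 to 182 against 12.8 to 18.2 TPM. Brachial KO replicate 3 had the least depth and stood apart in *Pax2*, as given below with the values without that library. It also held the highest value of the 12 libraries for *Lhx1* (26.5 TPM), *Foxp1* (43.7 TPM) and *Foxa1* (1.24 TPM).

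All 10 genes had a value above 0 in at least 9 libraries, but their levels differed widely. *Pax8* had the highest mean over the 12 libraries, 20.6 TPM, with a range of 14.0 to 26.5 TPM, although in brachial Het its 15.3 ± 1.6 TPM (SD, n = 3) was not separated from the 14.3 ± 3.6 TPM of *Lbx1*. *Lbx1* (mean 13.8 TPM, 9.98 to 19.2) and *Pou4f1* (mean 13.2 TPM, 10.2 to 17.0) came next and covered nearly the same range, so their order is within the spread of the libraries. *Barhl2* had a mean of 8.45 TPM (2.55 to 12.6), *Tlx3* of 5.51 TPM (3.71 to 8.24), *Barhl1* of 3.99 TPM (1.27 to 6.07) and *Pax2* of 3.22 TPM (1.73 to 6.47), and each of these ranges overlapped the next. *Ptf1a*, with a mean of 2.21 TPM (0.40 to 4.47), and *Lmx1b*, with 2.11 TPM (1.32 to 3.03), were indistinguishable in level. *Lmx1b* lies opposite *C130021I20Rik*, which ran at 5.40 to 11.8 TPM, and the strand setting of the counting is not given in the sources used here, so *Lmx1b* reads may include some of its neighbor.

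*Atoh1*, the dI1 progenitor gene (chr6:64729125-64731245), was barely detected. It measured 0.06, 0.00 and 0.09 TPM in the brachial Het libraries, 0.08, 0.24 and 0.09 in brachial KO, 0.02, 0.06 and 0.00 in lumbar Het and 0.02, 0.00 and 0.05 in lumbar KO. No library reached 0.5 TPM, the mean that a gene needed to be tested, so *Atoh1* is the single gene of the 10 without a test. Its dI1 descendants' genes *Barhl1* and *Barhl2* were present in every library.

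**Figure D1:**
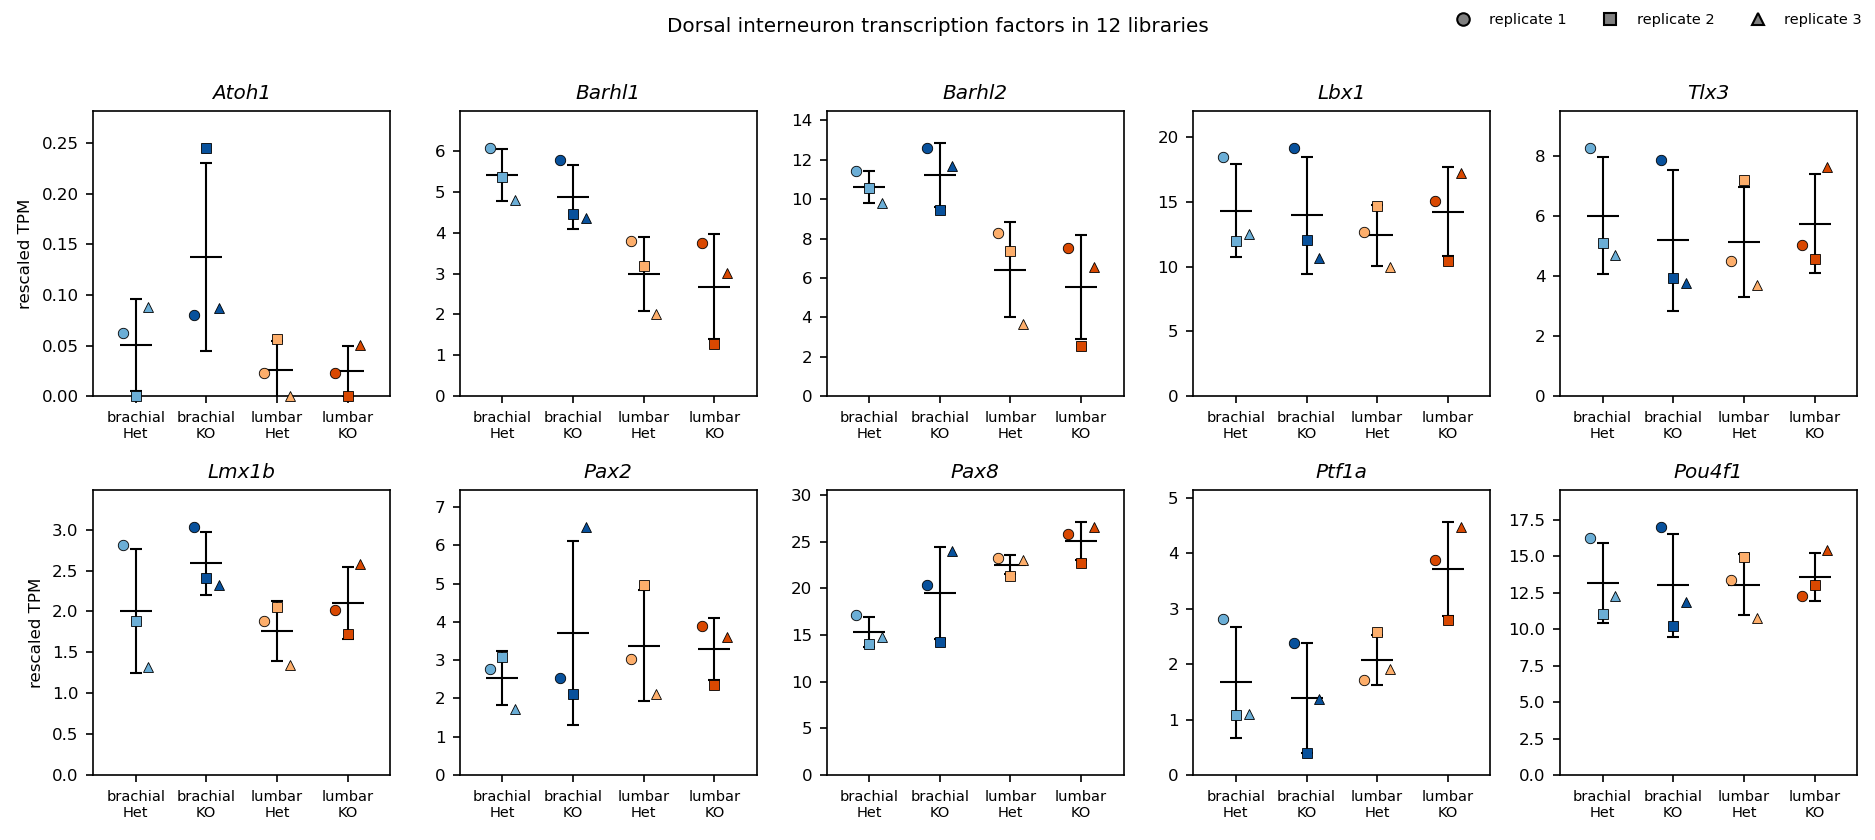
Level of each of the 10 genes in TPM after rescaling (vertical axes, each from 0) in the 4 groups (horizontal axis); points are libraries, shaped by replicate number, and the bar and whiskers are the mean and SD of 3 libraries. *Barhl1* and *Barhl2* sit lower in all lumbar than in all brachial libraries, *Atoh1* stays at or below 0.24 TPM, and the other genes overlap between levels.

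Summed over the 10 genes, the level was 71.1 ± 13.0 TPM (SD, n = 3) in brachial Het, 75.6 ± 15.6 in brachial KO, 69.8 ± 10.1 in lumbar Het and 76.0 ± 13.1 in lumbar KO. The 4 group means differed by less than the spread within a group. Single libraries ran from 58.6 TPM in lumbar Het replicate 3 to 90.8 TPM in brachial KO replicate 1. *Pax8* made up 28.2% of the summed level over all libraries, *Lbx1* 18.8%, *Pou4f1* 18.1%, *Barhl2* 11.6% and *Tlx3* 7.54%, with the other 5 genes below *Tlx3*. The makeup of the sum differed between levels even where its size did not: *Pax8* contributed 21.5% in brachial Het and 32.3% in lumbar Het, and *Barhl2* 14.9% and 9.20%.

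Set against the motor neurons that the dissection aimed at, the summed level of the 10 genes was 17.6% to 37.7% of that of 9 motor neuron genes (*Mnx1*, *Chat*, *Slc18a3*, *Slc5a7*, *Isl1*, *Lhx3*, *Lhx4*, *Foxp1* and *Aldh1a2*). The highest share belonged to lumbar KO replicate 3, in which the motor neuron sum was also the lowest of the 12, at 231 TPM. Against 9 ventral interneuron factors the share was 168% ± 42 (SD, n = 3) in brachial Het, 158% ± 44 in brachial KO, 105% ± 27 in lumbar Het and 128% ± 56 in lumbar KO, lower on average in lumbar cord with ranges that overlapped. The ventral interneuron sum was higher in lumbar cord (42.7 and 49.2 TPM in brachial Het and KO, 68.1 and 64.3 TPM in lumbar Het and KO), while the group means of the sum over the 10 genes lay between 69.8 and 76.0 TPM. The largest part of the latter sum, *Pax8*, also occurs in ventral neurons. *Pax8* went from 17.4 ± 4.0 TPM (SD, n = 6) in brachial to 23.8 ± 2.0 TPM in lumbar cord, while *Barhl1* and *Barhl2* fell, as given below. In bulk RNA, fewer cells of a type and less RNA per cell cannot be told apart. Markers of the roof plate, which borders the dI1 domain, were scarce. *Gdf7* was at most 0.06 TPM and *Wnt1* at most 0.23 TPM, and the 7 roof plate genes summed to 2.46 to 5.67 TPM. For sensory ganglia, which share *Pou4f1* and *Tlx3*, the 8 listed genes summed to 14.9 to 22.5 TPM, of which *Scn9a* alone gave 11.8 to 18.7. Genes that define sensory neurons were low, with *Avil* at 0.22 to 0.81 TPM and *Scn10a* at 0 throughout. The 6 mesenchyme genes summed to 1.17 to 2.52 TPM.

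**Figure D2:**
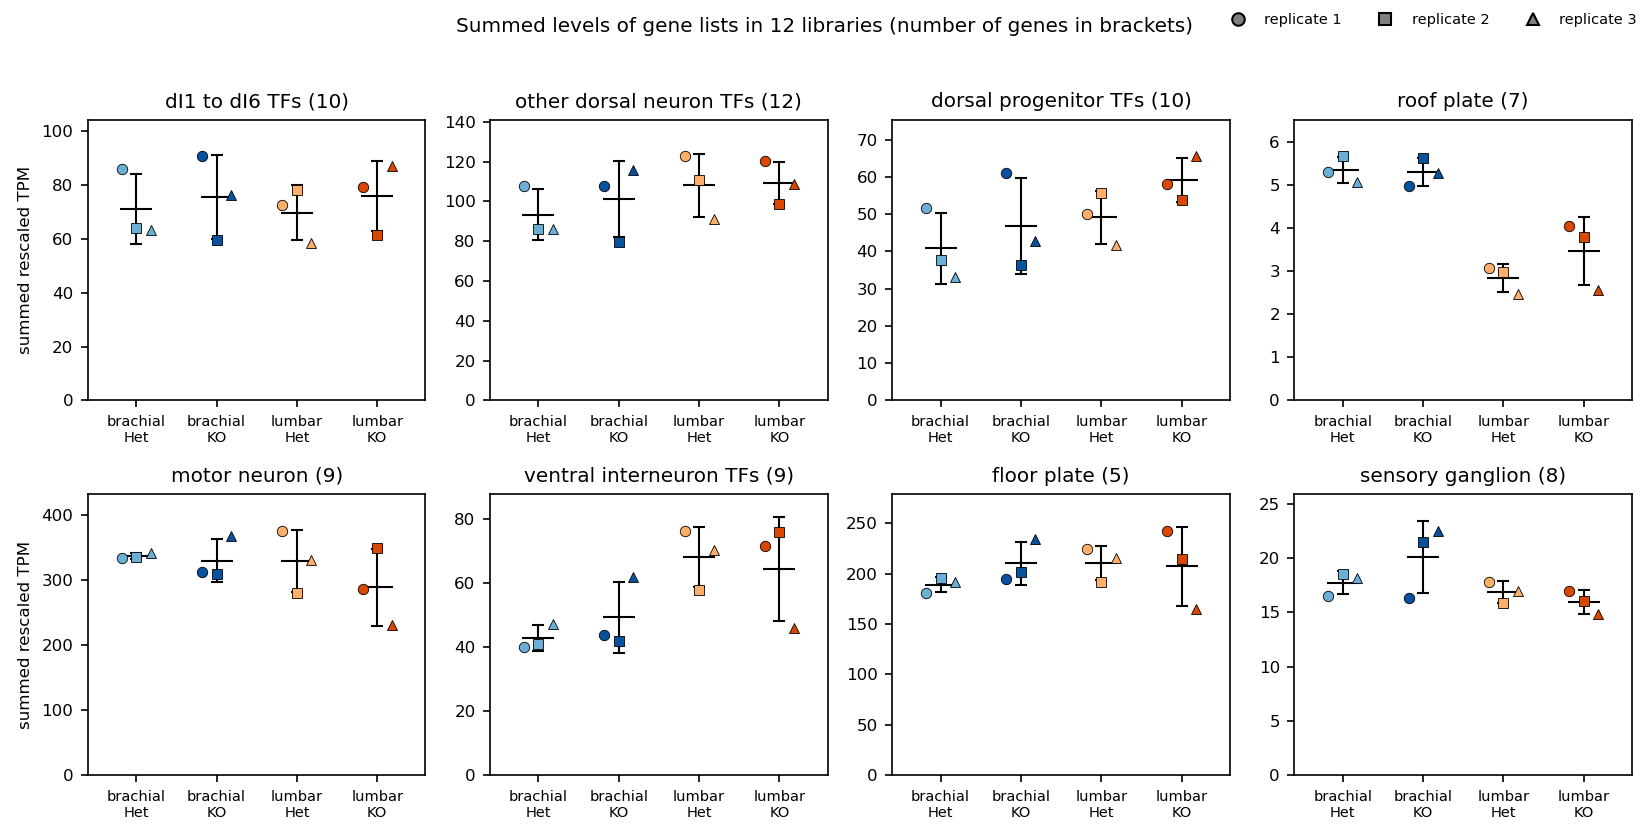
Summed TPM after rescaling (vertical axes, each from 0) of the 10 dorsal interneuron genes and of 7 comparison lists in the 4 groups; points are libraries, shaped by replicate number, with the mean and SD of 3 libraries. The dorsal interneuron sum overlaps across all 4 groups, whereas the roof plate sum is 4.97 to 5.67 TPM in brachial and 2.46 to 4.05 TPM in lumbar libraries.

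Between the cord levels the dI1 genes *Barhl1* and *Barhl2* fell, and *Pax8*, a gene of inhibitory interneurons, rose from brachial to lumbar cord. Of the 9 genes tested between lumbar and brachial cord over 12 libraries with genotype as a covariate, these 3 passed an adjusted p of 0.05, against 18.5% of all 16698 genes tested. The threshold of the study, stated there for genes lower in KO, was a log2 difference beyond 0.5 and an unadjusted p under 0.05. It was applied here in both directions and between levels as well. By it *Barhl1* and *Barhl2* were lower, against 5.9% of all genes, and *Ptf1a* was higher, against 4.43%, which makes 3 of 9 genes called either way, against 10.3%. The median log2 difference of the 9 genes was -0.02, beside 0.01 for all genes, with members on both sides. Libraries of the 2 levels did not overlap for 2 of the 9 genes, *Barhl1* and *Barhl2*, against 8.31% of all genes.

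The dI1 genes *Barhl1* (chr2:28907680-28917984) and *Barhl2* (chr5:106452523-106458166) fell together toward the lumbar cord. *Barhl1* measured 6.07, 5.36 and 4.81 TPM in brachial Het, 5.78, 4.47 and 4.37 in brachial KO, 3.80, 3.19 and 2.0 in lumbar Het and 3.76, 1.27 and 3.03 in lumbar KO. Every lumbar library was below every brachial library, and the lumbar mean of 2.84 ± 1.01 TPM (SD, n = 6) was 0.552 times the brachial mean of 5.14 ± 0.70. limma gave a log2 difference of -0.91 (SE 0.23, adjusted p = 0.0163). *Barhl2* measured 11.4, 10.5 and 9.81 TPM in brachial Het, 12.6, 9.44 and 11.7 in brachial KO, 8.26, 7.35 and 3.67 in lumbar Het and 7.53, 2.55 and 6.54 in lumbar KO. Its levels again did not overlap, and the log2 difference was -0.96 (SE 0.25, adjusted p = 0.0200 in limma). The lumbar libraries were more spread than the brachial ones for both genes, with lumbar Het replicate 3 and lumbar KO replicate 2 the lowest.

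The dI1 neuron genes *Lhx9* and *Lhx2* differed in the direction opposite to *Barhl1* and *Barhl2*. *Lhx9*, a LIM homeodomain gene of dI1 neurons, rose from 2.18 ± 0.25 TPM (SD, n = 6) in brachial to 4.36 ± 0.96 in lumbar cord, and limma gave a log2 difference of 0.95 (SE 0.15, adjusted p = 0.00130). *Lhx2*, its close relative in the same neurons, went from 0.69 ± 0.32 to 1.92 ± 0.98 TPM, with a log2 difference of 1.26 (SE 0.44, adjusted p = 0.0664), past the threshold of the study only. *Lhx9* did not overlap between levels, with 1.87 to 2.40 TPM in brachial and 3.00 to 5.84 TPM in lumbar libraries. Among the 12 genes listed with them as other dorsal neuron factors, 11 were tested and 1, *Lhx9*, passed the adjusted p. The threshold of the study was passed by 2 upward, *Lhx9* and *Lhx2*, and by 1 downward, *Drgx* of dorsal excitatory neurons, at -0.68 (adjusted p = 0.115 in limma). Of the 2 roof plate genes with enough signal to test, *Rspo3* fell by 1.32 on the log2 scale (SE 0.24, adjusted p = 0.00342 in limma), in the same direction as the *Barhl* genes. Its part in the *Barhl* difference was not tested.

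**Figure D3:**
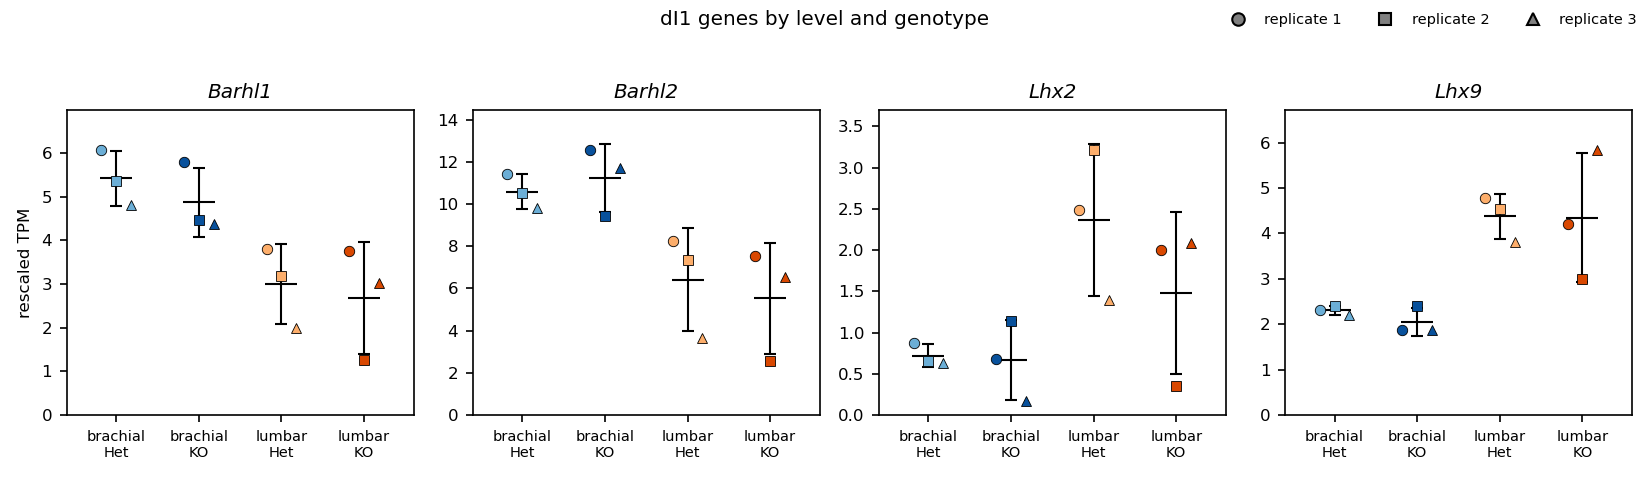
TPM after rescaling (vertical axes, each from 0) of 4 dI1 neuron genes in the 4 groups, with points for libraries and the mean and SD of 3 libraries. *Barhl1* and *Barhl2* are lower in lumbar cord, while *Lhx9* is higher there in every library and *Lhx2* is higher in most.

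The dI4 gene *Ptf1a* (chr2:19445663-19447501) and *Pax8* (chr2:24420551-24475599), which marks dI4 and dI6 as well as ventral inhibitory neurons, went the other way. *Pax8* measured 17.1, 14.0 and 14.8 TPM in brachial Het, 20.4, 14.2 and 24.0 in brachial KO, 23.2, 21.3 and 23.1 in lumbar Het and 25.9, 22.7 and 26.5 in lumbar KO. Brachial KO replicate 3 was the single brachial library within the lumbar range. The log2 difference was 0.47 (SE 0.11, adjusted p = 0.0107 in limma), just inside 0.5, and without that library it was 0.56. *Ptf1a* measured 2.82, 1.09 and 1.10 TPM in brachial Het, 2.39, 0.40 and 1.37 in brachial KO, 1.72, 2.58 and 1.92 in lumbar Het and 3.89, 2.80 and 4.47 in lumbar KO. The highest values, 4.47 and 3.89 TPM, were in lumbar KO libraries, and the levels overlapped. The log2 difference was 1.01 (SE 0.39, 95% CI 0.18 to 1.85, adjusted p = 0.0882 in limma), and without lumbar KO replicate 3 it was 0.88 with an unadjusted p of 0.053, and without brachial KO replicate 2 it was 0.66.

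No difference between levels was detected for the dI4 to dI6 gene *Lbx1*, the dI5 genes *Tlx3* and *Lmx1b*, the inhibitory neuron gene *Pax2* or *Pou4f1*. In limma the log2 difference was -0.07 for *Lbx1* (95% CI -0.45 to 0.31), -0.02 for *Tlx3* (-0.53 to 0.49) and 0.04 for *Pou4f1* (-0.25 to 0.33). *Pou4f1*, with the narrowest of these intervals, ran at 13.1 ± 2.8 TPM (SD, n = 6) in brachial and 13.3 ± 1.7 TPM in lumbar cord. The value was -0.22 for *Lmx1b* (-0.61 to 0.18) and 0.17 for *Pax2* (-0.45 to 0.78), and with a library left out they ran from -0.34 to -0.11 and from 0.0059 to 0.40. *Pax2* was at 0.40 without brachial KO replicate 3 and at 0.0059 without lumbar Het replicate 2. The intervals of *Tlx3*, *Lmx1b* and *Pax2* reach past 0.5 in at least 1 direction, which leaves room for a change past the threshold.

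The level difference was also fitted in each genotype, in 6 libraries that the other fit did not use. In Het cord *Barhl1* was lower in lumbar libraries by -0.87 on the log2 scale (adjusted p = 0.0908 in limma), *Barhl2* by -0.79 (adjusted p = 0.171) and *Pax8* higher by 0.56 (adjusted p = 0.0261). These 3 of 9 genes passed the threshold of the study, against 7.67% of all genes (4.27% lower and 3.41% higher), and 1 passed the adjusted p, against 2.94%. The libraries did not overlap for the same 3 genes, against 25.9%. *Barhl2* was at -0.43 without lumbar Het replicate 3 and *Pax8* kept its adjusted p under 0.05 when brachial Het replicate 1 was dropped and lost it when any other library was. In KO cord *Barhl1* was at -0.95 (adjusted p = 0.169), *Barhl2* at -1.14 (adjusted p = 0.119), *Ptf1a* at 1.61 (adjusted p = 0.125) and *Pax8* at 0.39 (adjusted p = 0.244). There *Barhl1*, *Barhl2* and *Ptf1a* passed the threshold, against 11.6% of all genes (6.67% lower and 4.94% higher), and did not overlap, against 29.2%. By limma 0 of 9 passed the adjusted p, against 1.77%, and 3 of 9 an unadjusted p of 0.05, against 23.9%. *Ptf1a* in Het cord was at 0.41 (adjusted p = 0.597). The sizes in KO cord depended on single libraries: without lumbar KO replicate 2 *Barhl1* was at -0.51 and *Barhl2* at -0.66, and without brachial KO replicate 2 *Ptf1a* was at 0.97 and *Pax8* at 0.18.

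**Figure D4:**
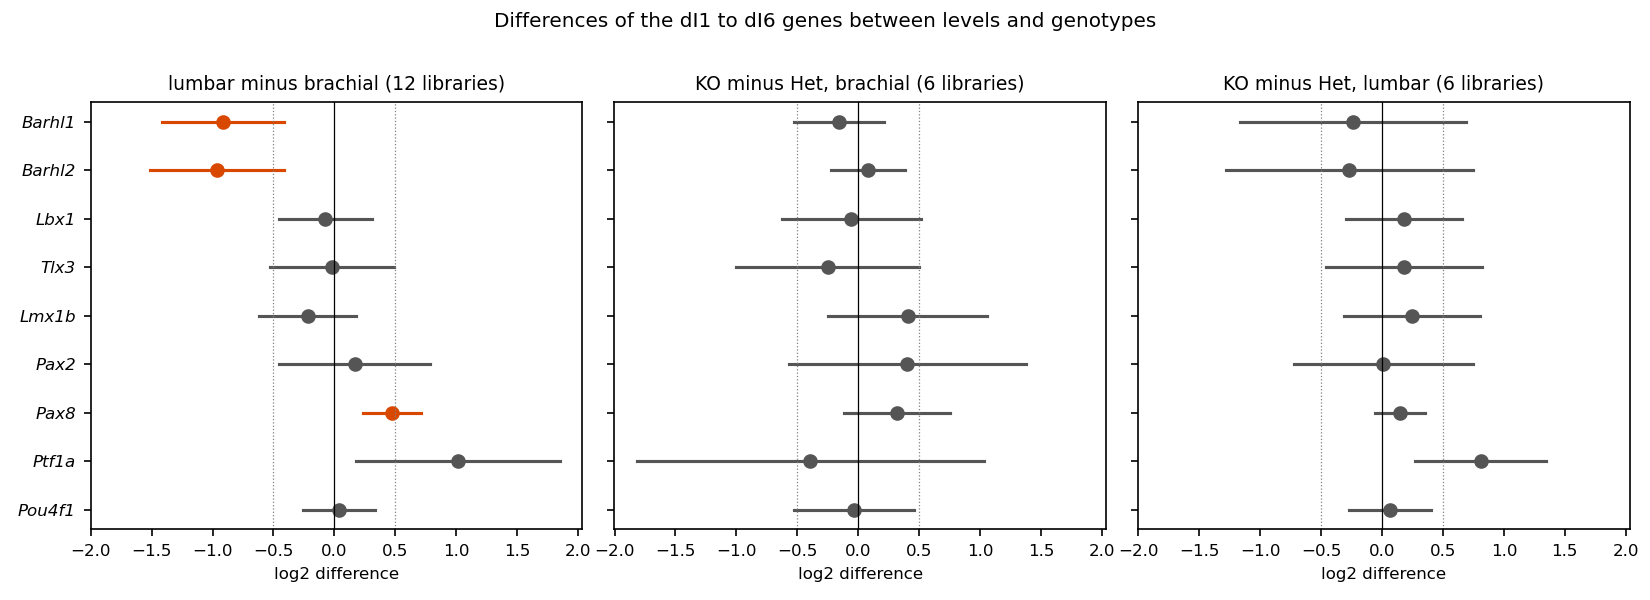
Log2 difference in TPM (horizontal axes) of the 9 genes tested, with 95% confidence intervals from limma, between lumbar and brachial cord and between KO and Het at each level; orange marks an adjusted p under 0.05 and dotted lines mark 0.5 in either direction. *Barhl1*, *Barhl2* and *Pax8* are orange in the level comparison, and no gene is in either KO comparison.

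In *Isl2* KO cord no change of the dorsal interneuron genes was detected at the brachial level. Of the 9 genes tested in the 3 KO and 3 Het brachial libraries, 0 passed the threshold of the study, against 3.08% of all 16768 genes (2.21% higher and 0.871% lower), and 0 passed an adjusted p of 0.05, against 0.00596%. At an unadjusted p of 0.05 the count was 0 of 9, against 13.9%. KO and Het libraries overlapped for every gene, while 20.1% of all genes did not overlap. The log2 differences ran from -0.39 for *Ptf1a* to 0.41 for *Lmx1b*, with a median of -0.03 beside -0.01 for all genes. *Barhl2*, at 0.08 (95% CI -0.23 to 0.38), and *Barhl1*, at -0.15 (-0.52 to 0.22), were the most tightly bounded, whereas *Ptf1a*, at -0.39 (-1.82 to 1.03), was hardly bounded at all. The other values were -0.06 for *Lbx1*, -0.25 for *Tlx3*, 0.40 for *Pax2*, 0.32 for *Pax8* and -0.03 for *Pou4f1*.

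*Pax2*, a gene of inhibitory dI4 and dI6 neurons, had its 12-library maximum in 1 brachial KO library. It measured 2.77, 3.07 and 1.73 TPM in brachial Het and 2.54, 2.13 and 6.47 in brachial KO. The third KO library alone lay outside the Het range on the high side, and without it the log2 difference went from 0.40 to -0.08.

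At the lumbar level *Ptf1a* was higher in KO cord and the other 8 tested genes passed no threshold. *Ptf1a* was 3.72 ± 0.85 TPM (SD, n = 3) in KO and 2.07 ± 0.45 TPM in Het, a log2 difference of 0.81 (SE 0.23, 95% CI 0.27 to 1.35, unadjusted p = 0.00852, adjusted p = 0.999 in limma). All 3 KO libraries were above all 3 Het libraries. KO and Het libraries did not overlap, in either direction, for 1 of 9 genes, against 9.94% of all genes. By the threshold of the study 1 of 9 genes was called, against 1.77% of all 16620 genes (0.981% higher and 0.794% lower). In limma 0 passed an adjusted p of 0.05, against 0% of all genes, and 1 of 9 an unadjusted p of 0.05, against 4.86%. When all 12 libraries shared 1 estimate of the spread, the *Ptf1a* difference had an unadjusted p of 0.14. Positive differences were seen for 7 of the 9 genes, with a median of 0.15 beside -0.01 for all genes. The values were -0.24 for *Barhl1*, -0.27 for *Barhl2*, 0.18 for *Lbx1*, 0.18 for *Tlx3*, 0.25 for *Lmx1b*, 0.01 for *Pax2*, 0.15 for *Pax8* and 0.06 for *Pou4f1*. The negative sign of *Barhl1* and *Barhl2* rested on lumbar KO replicate 2, without which both were at 0.21.

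In the same comparison 9 of 10 dorsal progenitor factors, the class to which *Ptf1a*-expressing progenitors belong, had positive differences, with a median of 0.49, and none passed either criterion. Of the 9 motor neuron genes 1 was positive, with a median of -0.26, and none passed. Their part in the *Ptf1a* difference was not tested. The KO effect on *Ptf1a* was larger at the lumbar than at the brachial level by 1.20 on the log2 scale (SE 0.72, 95% CI -0.38 to 2.78), which was not a detectable difference (adjusted p = 0.812, limma with an interaction term). Of the 9 genes 0 passed the threshold or the adjusted p in that test, against 2.04% (0.994% higher and 1.04% lower) and 0% of all 16698 genes, and 0 of 9 passed an unadjusted p of 0.05, against 4.42%.

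Within groups, the dorsal genes rose and fell together from library to library. When each library was expressed as its log2 deviation from the mean of its group, Pearson's r over the 12 libraries was above 0 for 36 of 36 pairs of the 9 genes, with a median of 0.53, and above 0.8 for 7 pairs. These correlations describe libraries that share their depth and scaling, and no p is given. The dI1 pair *Barhl1* and *Barhl2* reached r = 0.97, and the dI5 genes moved with *Lbx1* and *Pou4f1*, at r = 0.93 for *Lbx1* and *Tlx3*, 0.92 for *Tlx3* and *Pou4f1*, 0.85 for *Lbx1* and *Pou4f1* and 0.84 for *Tlx3* and *Lmx1b*. *Ptf1a* moved with *Pou4f1* (r = 0.83) and *Pax8* (r = 0.77). *Pax2* and *Pax8* were more loosely tied to *Lbx1* and the dI5 genes, with r = 0.14 for *Pax2* and *Lbx1*, 0.21 for *Pax2* and *Tlx3*, 0.39 for *Pax2* and *Lmx1b* and 0.24 for *Pax8* and *Tlx3*. No stretch of 50 bases was shared between transcripts of any 2 of the 10 genes.

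**Figure D5:**
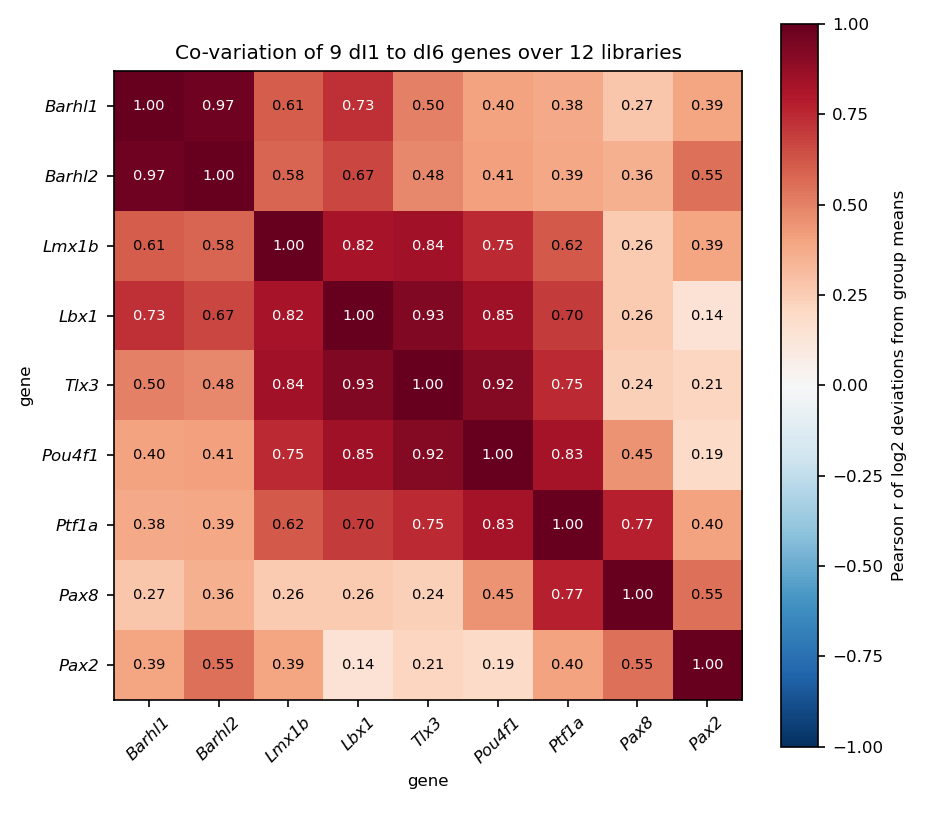
Pearson's r (color scale from -1 to 1, value in each cell) between the log2 deviations of 9 genes from their group means over 12 libraries, with genes on both axes. All off-diagonal cells are above 0, with a block of high values among *Lbx1*, *Tlx3*, *Lmx1b* and *Pou4f1*, a pair for *Barhl1* and *Barhl2*, and the lowest values for *Pax2* and *Pax8*.

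The libraries with much or little of these genes could be named. Brachial Het replicate 1 was above the median of the brachial libraries for 9 of 9 genes and brachial KO replicate 1 for 8 of 9. Lumbar KO replicate 1 was above its median for 8 of 9, lumbar Het replicate 2 and lumbar KO replicate 3 for 7 of 9 each, and lumbar KO replicate 3 was the highest of its level for 6 of 9. Lumbar Het replicate 3 was above the median for 0 of 9 and lowest for 5. Brachial KO replicate 2 and lumbar KO replicate 2 were each above it for 1 of 9. Libraries rich and poor in these genes thus occurred in both genotypes.

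Ventral genes ran opposite to most of the 9 genes in these deviations, most strongly to *Tlx3* and *Lbx1*. Against the mean deviation of the 9 motor neuron genes, r was -0.64 for *Tlx3*, -0.59 for *Lbx1* and -0.47 for *Lmx1b*. Against 9 ventral interneuron factors it was -0.67, -0.61 and -0.57. For *Barhl1*, *Barhl2*, *Pou4f1* and *Ptf1a* it ran from -0.38 to -0.21 with the motor neuron genes and from -0.39 to -0.16 with the ventral interneuron factors. *Pax8* and *Pax2*, which ventral neurons also use, had r = 0.26 and 0.07 with the ventral interneuron factors, and 0.15 and -0.08 with the motor neuron genes. Against the mean deviation of the 9 dorsal genes, the median r was 0.70 for dorsal progenitor factors, over a range of -0.25 (*Neurog1*) to 0.98, and 0.54 for other dorsal neuron factors, over a range of -0.17 (*Dmrt3*) to 0.94 (*Drgx*). It was -0.37 for motor neuron genes, -0.39 for ventral interneuron factors and -0.22 for floor plate genes, beside 0.00 for all genes with a mean of at least 1 TPM. Outside the lists, the 8 of 14888 genes with the pattern most like that of the 9 genes over the 12 libraries were *Adamts7* (r = 0.95), *Zfp341* (0.94), *Col14a1* (0.91), *Gm14403* (0.91), *TrnA* (0.91), *Hirip3* (0.91), *Crabp1* (0.90) and *Boc* (0.90). Crabp1 binds retinoic acid in the cytoplasm, and Boc is a Shh co-receptor of commissural neurons.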

How the data were processed

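Bulk total RNA libraries (ribosomal RNA removed, stranded kit) of trimmed ventral cord at E12.5 were used, 12 in all, grouped by the level and genotype in their labels. Per the labels and the study's methods, the authors used Trimmomatic 0.38 for read trimming, HISAT2 2.1.0 and Bowtie2 2.3.4.1 for alignment to mm10 and StringTie 2.1.3b for quantification, and the submitters' processing notes also list FastQC 0.11.7. The deposited TPM values are the authors' StringTie estimates, scaled to gene length and a fixed library total. The deposited FPKM values and the deposited coverage (signal per base) come from the same tables, and FPKM was used as an alternative. The ratio of coverage to FPKM gave the aligned bases per library, and it lay within 1% of its median for 96.5% to 97.4% of single-transcript genes. With no counts in these tables, counting error cannot be read from them, no interval for a single library is given, and limma stood in for the count-based test of the study.

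TPM was divided by median-of-ratios size factors (0.896 to 1.25), since 5 small RNAs took 23.7% to 38.2% of TPM. After adding 0.1, the log2 scale was modelled in R 4.3.3 by limma 3.58.1 (lmFit, then eBayes with trend) for genes with a mean of at least 0.5 TPM in the libraries fitted, with Benjamini-Hochberg adjustment over all genes tested. A fold on this scale understates changes of low genes. The fit was tested on simulated data. Names came from RefSeq GRCm38.p6 for 45679 of 45777 identifiers, of which 96.1% had the same coordinates there, and values of 5 identifiers on more than 1 line were summed. Tables and plots were made with Python 3.11.15, pandas 2.3.3, numpy 2.4.6 and matplotlib 3.10.9.

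The genes, comparison lists and tests were chosen with earlier results of these data known. The text names the 10 genes, *Isl2*, genes of the comparison lists where a result turns on them, and the 8 other genes whose deviations from group means were most like those of the 9 tested genes. The genes *Hoxd10*, *Hoxc8* and *C130021I20Rik* were named as checks after their values were seen, and some genes of the comparison lists are not reported here. The p-values measure the spread between these libraries, and libraries of a shared embryo would make those between levels inexact. Replicate numbers were not used to pair libraries. Deviations of same-numbered brachial and lumbar libraries had r from -0.21 to 0.34, and 3 of these 6 pairs were of the same sex by *Xist* and Y-linked genes. In Het, the pairs of replicates 2 and 3 matched in sex and that of replicate 1 did not. By that sex call, the brachial and lumbar Het libraries were not all from the same 3 embryos. Alternatives were TPM without rescaling, quantile scaling, other pseudocounts and filters, no trend, a shared fit, a replicate block, FPKM, and leaving out each library.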

Additional observations from a re-analysis of the deposited data

How the results depend on the processing

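Over the 12 libraries *Barhl1* and *Barhl2* stayed lower and *Pax8* higher in lumbar cord in all alternatives run, and all 3 passed the adjusted p except under TPM as deposited (2 of them), at -1.04 to -0.71, -1.08 to -0.73 and 0.39 to 0.56 on the log2 scale when a library was left out. *Ptf1a* stayed past the threshold for lumbar KO when a library was left out, at 0.67 to 0.99, but not in a fit shared by all 12 libraries. Several other calls changed with a single library. With a library left out, the number of the 9 genes past the study's threshold ranged from 0 to 2 higher between levels (0 without lumbar KO replicate 3), 0 to 2 higher and 1 to 2 lower in Het cord, where 0 to 1 passed the adjusted p, 0 to 2 higher and 1 to 2 lower in KO cord, 0 to 1 higher for KO in brachial cord (*Lmx1b* at 0.67 without brachial Het replicate 1, *Pax8* at 0.53 without brachial KO replicate 2), and 0 to 1 higher for the difference of KO effects (*Ptf1a* at 1.71 without brachial KO replicate 1). With all 12 libraries in a shared fit, 0 genes were higher in lumbar KO cord. In Het cord 0 passed the adjusted p with no filter, with TPM as deposited or with no trend, and in KO cord 1 was lower with no trend. *Barhl1* in KO cord also lost its call with no filter and without brachial KO replicate 1. With a library left out the ranges in KO cord were -1.25 to -0.51 for *Barhl1*, -1.42 to -0.66 for *Barhl2*, 0.18 to 0.55 for *Pax8* and 0.97 to 2.12 for *Ptf1a*, and between levels 0.66 to 1.27 for *Ptf1a*. Causes were not tested.

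TPM as deposited moved the median of all genes to 0.16 for brachial KO against Het and to -0.12 for lumbar against brachial, so signs near 0 are relative to the scaling: brachial KO minus Het became 0.018 for *Barhl1*, 0.12 for *Lbx1* and 0.14 for *Pou4f1*, and lumbar minus brachial -0.10 for *Pou4f1*. Quantile scaling turned *Pax2* in lumbar KO to -0.0084 and *Tlx3* between levels to 0.019. Without brachial KO replicate 3 and lumbar KO replicate 3, a choice made after seeing the data, *Pou4f1* between levels was -0.030 and *Ptf1a* 0.89 (unadjusted p = 0.072). *Pax8* was then past the threshold, at 0.54 (unadjusted p = 0.00023 in limma). Leaving out a library gave, for brachial KO minus Het, -0.010 to 0.20 for *Barhl2*, -0.31 to 0.14 for *Lbx1*, -0.077 to 0.70 for *Pax2*, -0.90 to 0.25 for *Ptf1a* and -0.24 to 0.13 for *Pou4f1*. For lumbar KO minus Het it gave -0.53 to 0.21 for *Barhl1*, -0.62 to 0.21 for *Barhl2*, -0.040 to 0.45 for *Tlx3*, -0.27 to 0.32 for *Pax2* and -0.065 to 0.17 for *Pou4f1*. Between levels it gave -0.16 to 0.027 for *Lbx1*, -0.14 to 0.12 for *Tlx3* and -0.036 to 0.13 for *Pou4f1*. Summed FPKM of the 10 genes was 35.9, 38.1, 34.9 and 38.0 in brachial Het, brachial KO, lumbar Het and lumbar KO, on its own scale.

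The replicate block, although the numbers do not pair the libraries (same-numbered Het and KO libraries had r from -0.21 to 0.23), changed no count: 3 genes passed the adjusted p between levels and 1 the threshold for lumbar KO.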

Other observations

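Among the ventral interneuron factors, all 9 of which were tested, 4 rose from brachial to lumbar cord at an adjusted p of 0.05 in limma and none fell, against 18.5% of all genes either way. Among them, *En1* of V1 neurons went from 4.59 ± 0.93 TPM (SD, n = 6) to 8.26 ± 2.55 TPM, a log2 difference of 0.79 (adjusted p = 0.0205). *Sim1* of V3 neurons rose by 0.60 and *Sox14* by 0.54 on the log2 scale (adjusted p = 0.0176 and 0.0488). The dorsal progenitor factor *Neurog1*, of the dI2 domain and sensory precursors, rose from 3.00 ± 0.92 to 5.98 ± 2.67 TPM (adjusted p = 0.0351 in limma), the single gene of 10 dorsal progenitor factors past it.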
